A study of Mus musculus with 28 samples.

Results

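The chromatin of 10 Krüppel-like factor genes was examined in mouse embryonic stem cells: Klf2, Klf3, Klf4, Klf5, Klf6, Klf7, Klf9, Klf10, Klf13 and Klf14, out of 21887 protein-coding genes in the RefSeq annotation. They were taken by name, and each was followed over its gene body plus 100 kb on either side (mm10). The genes lie on 10 different chromosomes, so that no stretch was counted for more than a single member. Positions came from CUT&RUN, where antibody-bound chromatin is cut out of nuclei by a nuclease fusion and the freed DNA is sequenced. The values are 2 lists of consensus regions, of which 57844 for H3K27ac and 5430 for H3.3 lie on assembled chromosomes. H3K27ac, acetylation of lysine 27 of histone H3, marks active promoters and enhancers. H3.3 is the H3 variant placed into chromatin outside DNA replication.

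The series held 28 libraries of the male line E14 (ES-E14TG2a), 7 for each of 4 targets, namely H3.3, H3K27ac, H3K122ac, which is acetylation of another H3 residue, and controls that received no antibody. Per target there were 2 wildtype libraries, 2 of H3f3a_AA_H3f3b_WTA from separate clones, and 1 each of H3f3a_AA_H3f3b_WTWT, H3f3a_WTWT_H3f3b_AA and H3f3a_WTA_H3f3b_AA, where A stands for the H3.3 substitution K122A named in the title of the series and WT for the wildtype allele. The genotypes with 1 library per target carry no replicate line. The labels describe culture in serum with LIF and also a LIF medium with 2 inhibitors, and do not say which was used for these libraries. Which genotypes entered each list is not given in the sources used here, and the lists hold no value per library. Mutant and wildtype cells were therefore not compared, depth is unknown, and every value below is a position, a width or a count with no replicate behind it. As a check of the cell type, H3K27ac lay within 1 kb of an end of 6 of 6 embryonic stem cell marker genes, including Pou5f1 and Nanog, and at 1 of 6 fibroblast, 0 of 6 primitive endoderm and 1 of 6 neural marker genes. H3.3 lay at an end of 2 of the 6 stem cell genes, and of 2, 4 and 5 of the 6 genes of the other lists. Of those in the fibroblast, endoderm and neural lists, 1, 4 and 4 had H3.3 without H3K27ac. Over all protein-coding genes the shares were 38.8% for H3K27ac, 16.0% for H3.3 and 5.31% for H3.3 without H3K27ac.

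Krüppel-like factors are transcription factors with a set of C-terminal C2H2 zinc fingers that bind GC-rich and CACCC-type sequence. Klf2, Klf4 and Klf5 act together in the circuit of naive pluripotency in embryonic stem cells, and Klf4 is a classical reprogramming factor and a target of LIF and STAT3 signalling. By their partners the family is commonly sorted into activators that bind acetyltransferases (here Klf2, Klf4, Klf5, Klf6 and Klf7), repressors that recruit CtBP (Klf3) and repressors that recruit SIN3 (Klf9, Klf10, Klf13 and Klf14).

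The sequence just before the start site is shown because the members differed in which of the 2 region types, if any, overlapped it. RefSeq start sites (GRCm38.p6, whose chromosomes carry mm10 coordinates) matched 7 of the 10 members. The 150 bases before each start site are given 5′ to 3′ in the direction of transcription. Capitals mark matches on either strand to GGGCGG, the GC box bound by SP and KLF proteins, or to the TATA-box letters TATAAA. They also mark TTCNNNGAA, whose spacing STAT proteins bind. Also in capitals are CCACCC and CACACCC, separate patterns that each contain CACCC and are called CACCC boxes. A CACCC outside these patterns is not marked, as in the Klf9 sequence. Neighbouring matches may share bases.
Klf2 (chr8:72318912-72319061, plus strand): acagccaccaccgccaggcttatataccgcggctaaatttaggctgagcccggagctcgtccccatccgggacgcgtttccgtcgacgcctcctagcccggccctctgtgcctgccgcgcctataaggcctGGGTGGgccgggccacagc
Klf4 (chr4:55532476-55532625, minus strand): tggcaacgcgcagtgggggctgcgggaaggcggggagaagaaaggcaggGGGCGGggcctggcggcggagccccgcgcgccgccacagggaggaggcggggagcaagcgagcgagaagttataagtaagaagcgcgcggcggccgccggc
Klf6 (chr13:5861339-5861488, plus strand): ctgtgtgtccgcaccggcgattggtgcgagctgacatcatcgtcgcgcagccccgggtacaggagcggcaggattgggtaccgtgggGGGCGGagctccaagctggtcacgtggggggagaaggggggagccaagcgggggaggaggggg
Klf7 (chr1:64121390-64121539, minus strand): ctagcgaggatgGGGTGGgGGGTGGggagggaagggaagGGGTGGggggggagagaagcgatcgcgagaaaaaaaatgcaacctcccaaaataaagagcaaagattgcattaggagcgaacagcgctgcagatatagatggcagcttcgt
Klf3 (chr5:64803371-64803520, plus strand): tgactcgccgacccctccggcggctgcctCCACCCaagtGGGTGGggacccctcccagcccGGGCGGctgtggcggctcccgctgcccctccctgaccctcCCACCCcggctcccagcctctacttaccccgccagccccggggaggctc
Klf9 (chr19:23141076-23141225, plus strand): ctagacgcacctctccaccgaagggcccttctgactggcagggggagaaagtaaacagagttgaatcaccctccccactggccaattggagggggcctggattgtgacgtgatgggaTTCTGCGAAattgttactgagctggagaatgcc
Klf13 (chr7:63938916-63939065, minus strand): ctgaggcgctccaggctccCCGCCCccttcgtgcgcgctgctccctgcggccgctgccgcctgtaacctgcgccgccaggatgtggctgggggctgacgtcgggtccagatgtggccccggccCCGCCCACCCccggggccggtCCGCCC

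Over the full RefSeq window, from 250 bases before to 50 after the start site, GGGCGG or its complement was found at 6 of the 7 members, with 6 matches at Klf3, 4 at Klf4 and none at Klf9. It was found in 46.2% of the 21263 start-site windows of protein-coding genes. CCACCC was present at 4 of the 7 (Klf2, Klf3, Klf7 and Klf13) against 33.6% of all windows. TTCNNNGAA was found at Klf9 alone among the 7, with 1 match, against 7.69%. CACACCC (8.02% of all windows) and TATAAA (12.6%) were not in any of the 7 windows. All 7 lay above the median GC content of 56.3%, from 58.3% at Klf7 to 76.7% at Klf3. Klf7 was near that median, with 55.7% of all windows lower, against 96.5% lower for Klf3. The Klf4 window held 40 CpG dinucleotides and the Klf7 window 16, against a median of 13. A match of letters is not evidence of binding.

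**Figure D1:**
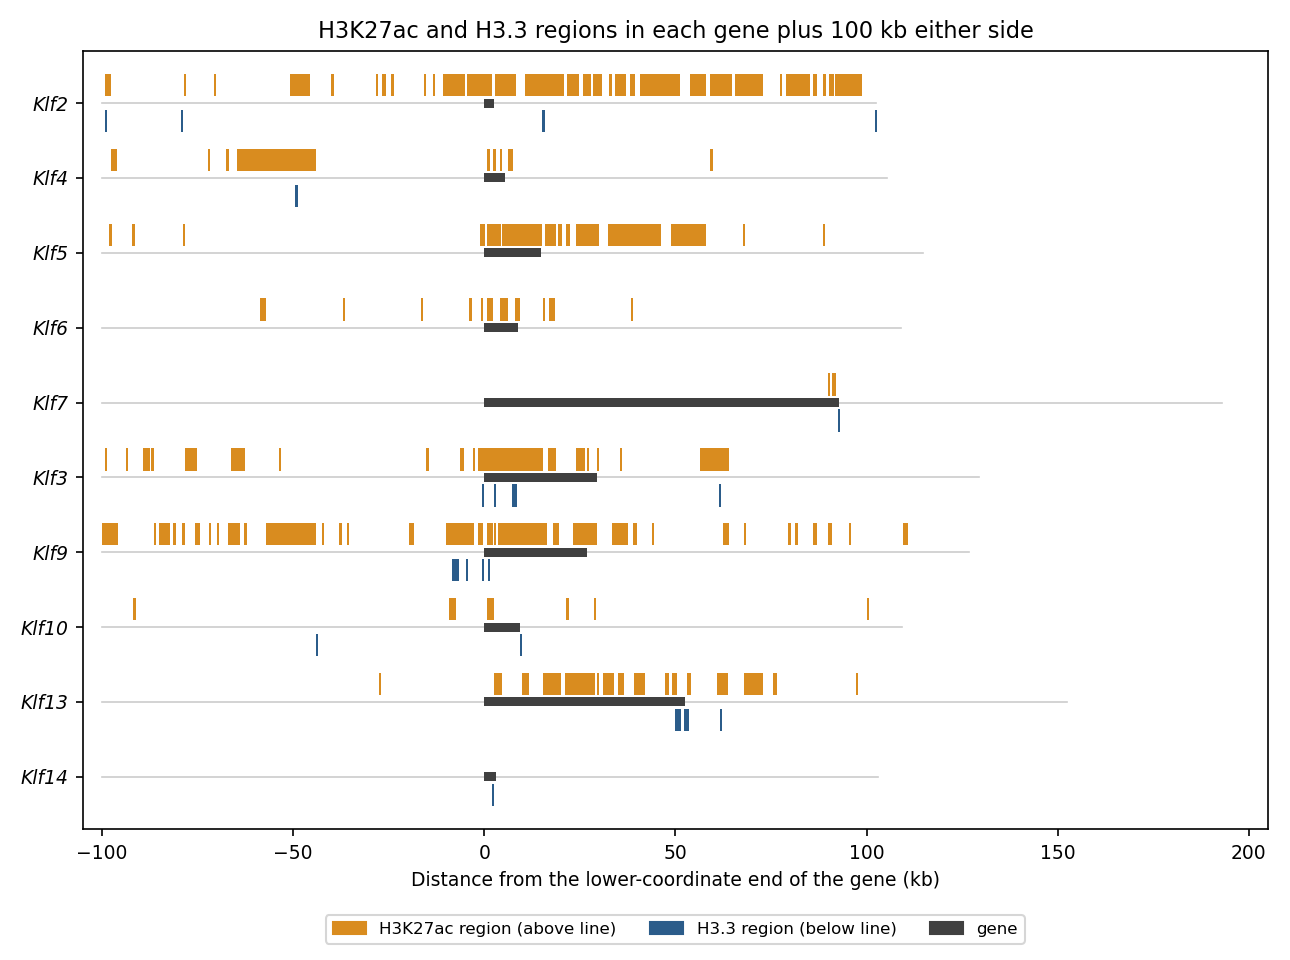
Regions of H3K27ac (orange, above each line) and H3.3 (blue, below) in 10 Klf genes (grey boxes) plus 100 kb either side, by distance in kb from the lower-coordinate end of the gene, with regions narrower than 0.6 kb drawn 0.6 kb wide. Klf2 and Klf9 have 31 and 33 H3K27ac regions, Klf7 has 2 and Klf14 has none.

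The windows held very different amounts of acetylated chromatin. In all, 142 H3K27ac regions and 21 H3.3 regions touched the 10 windows. At least 1 H3K27ac region was present in 9 of them, against 80.5% of protein-coding genes, and at least 1 H3.3 region in 8, against 51.9%. The H3K27ac-covered length had a median of 31.4 kb over the members and of 8.26 kb over all protein-coding genes, and ran from 0 at Klf14 to 96.0 kb at Klf2. Regions wider than 10 kb, which make up 0.640% of the H3K27ac list, numbered 8 and lay in the windows of 5 members, Klf2, Klf3, Klf4, Klf5 and Klf9. Such a region was present in the windows of 6.34% of protein-coding genes. Since the 10 kb width was chosen after the values were seen, the 5 of 10 are a description only.

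Among the activators, Klf2, a factor also known from endothelial and T cell quiescence, had the most H3K27ac of the 10 members. Its gene spans only 2593 bp on chromosome 8, from 72319062 to 72321654. A region of 6462 bp (72314538 to 72320999) ran across the start site, from 4524 bp upstream to 1937 bp downstream, and a region of 5619 bp began 173 bp beyond the other end. The window held 31 regions covering 96.0 kb, more than in the windows of 99.7% of protein-coding genes. Of this sequence 61.3% lay inside other protein-coding genes, mostly Eps15l1, an endocytic adaptor gene, which was touched by the widest region of the window (10572 bp, 38.2 kb away). Joining H3K27ac regions across the gap length customary in super-enhancer calls put Klf2 in a cluster of 29 regions with 94.5 kb of H3K27ac, ranked 32 of 15441 clusters. A region of 10153 bp, 8.13 kb beyond the gene and in no protein-coding gene, was the only wide one that held H3.3, with an H3.3 region of 897 bp wholly inside it. No H3.3 region touched Klf2 itself, and the nearest was that one, 12.4 kb away.

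Klf4 had little acetylation at the gene and a wide domain far from it. The gene lies on the minus strand of chromosome 4 from 55527137 to 55532475. Its body held 3 short regions of 285, 287 and 390 bp, which covered 18.0% of it, and a region of 1354 bp lay upstream, 741 bp from the start site, inside the annotated lncRNA gene Gm12506. The domain downstream of the gene measured 20605 bp (55462459 to 55483063), ranked 41 in width among the 57844 H3K27ac regions, and began 44.1 kb from the gene. It made up most of the 26.0 kb of H3K27ac in the window, and 76.5% of protein-coding genes had less in their windows. No protein-coding gene other than Klf4 lies in the window. Distal enhancers downstream of Klf4 are well known in mouse embryonic stem cells. The only H3.3 region of the window, of 323 bp, lay wholly inside the wide domain, 49.1 kb from the gene, and on the upstream side the nearest H3.3 region was 1.27 Mb away.

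Klf5, a factor of pluripotent and epithelial progenitor cells, was acetylated over nearly its whole length. H3K27ac covered 94.2% of the gene body (chromosome 14, 99298691 to 99313412), in regions of 3694 and 10499 bp. Beyond the higher-coordinate end followed regions of 6254, 13994 and 9181 bp, the widest of them 17.6 kb away (99330994 to 99344987). That side held 35.6 kb of H3K27ac and the lower side 2.56 kb. The window held 52.0 kb, more than in 94.1% of protein-coding genes, and the cluster over Klf5 held 50.0 kb in 11 regions (rank 184). No H3.3 region lay in the window, and the nearest was 972 kb away, farther than for 87.2% of protein-coding genes.

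Klf6 and Klf7 had far less. Klf6, an immediate-early type factor known from liver and epithelium, had 11 short regions covering 11.1 kb, the widest 2038 bp and inside the gene, and 55.6% of protein-coding genes had less in their windows. No H3.3 region lay in its window. The nearest were 2500.1 kb away on the lower and 3015 kb on the higher side, farther than for 95.1% of protein-coding genes. Klf7, best known from the developing nervous system, had 2 regions of 240 and 907 bp, both inside the gene, and 26.97% of protein-coding genes had less in their windows. The region of 907 bp (chromosome 1, 64120421 to 64121327) began 62 bp downstream of the start site. It lay 1018 bp from the annotated gene end and so fell just outside the 1 kb used below. An H3.3 region of 288 bp (64121877 to 64122164) lay from -775 to -488 bp relative to the same start site, with a gap of 549 bp to the H3K27ac. The annotated lncRNA gene Gm35880 begins between them, at 64121567, and the H3.3 region lies in both annotated genes.

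The CtBP-type repressor Klf3, a broad factor known from erythroid and fat cells, carried the widest H3K27ac region found at an end of any member. It measured 16996 bp (chromosome 5, 64801834 to 64818829), ranked 74 in the list, and ran from 1687 bp upstream of the start site to 15308 bp downstream. It also touched Gm38457, a protein-coding gene annotated over the same start. The Klf3 window held 17 H3K27ac regions covering 43.5 kb, more than in 90.1% of protein-coding genes. Inside the wide region lay 3 H3.3 regions of 229, 231 and 1267 bp, the first of them from -652 to -424 bp relative to the start site. The other H3.3 region of the window, of 412 bp, lay wholly inside an H3K27ac region of 7645 bp, 26.9 kb beyond the gene.

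Among the SIN3-type repressors, Klf9 came next after Klf2 in its amount of H3K27ac. Klf9, a hormone-responsive factor, had 33 regions covering 75.6 kb, more than in 98.7% of protein-coding genes, and 7.17% of it lay in another protein-coding gene. A region of 12695 bp (chromosome 19, 23144907 to 23157601) lay inside the gene, 74.0% of which was acetylated. A second of 13157 bp (23084095 to 23097251) lay 44.0 kb upstream. The cluster over the gene held 38.2 kb in 11 regions (rank 345). Klf9 also had the most H3.3, with 4 regions, all of them touching H3K27ac. The widest measured 1955 bp and lay wholly inside an H3K27ac region, 6.63 kb upstream, and those of 585 and 228 bp lay on either side of the start site.

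Klf13, known from lymphocytes and heart, was acetylated mainly within the gene. Of the 36.9 kb of H3K27ac in its window, 26.4 kb lay in the gene, in 10 regions, the widest of 7874 bp, and 86.1% of protein-coding genes had less in their windows. It had 4 H3.3 regions, all of them touching H3K27ac, a region of 886 bp by 16 bp only. That of 1203 bp (chromosome 7, 63938687 to 63939889) covered the start site, from 974 bp upstream to 228 bp downstream. No other member had as wide a stretch of H3.3 at an end.

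Klf10 and Klf14 lay at the low end. Klf10, a TGF-β-inducible gene, had 6 H3K27ac regions covering 5.56 kb, and 43.3% of protein-coding genes had less. Its region of 1841 bp lay in the gene, 802 bp from the lower-coordinate end. An H3.3 region of 643 bp lay 86 bp beyond the other end, 6690 bp from the nearest H3K27ac, and there the gene overlaps the lncRNA gene Gm35248. Klf14, an intronless imprinted gene beside the Mest locus, had no H3K27ac region in its window. The nearest was 123 kb from the gene, farther than for 82.8% of protein-coding genes. A lone H3.3 region of 320 bp (chromosome 6, 30957981 to 30958300) lay inside the gene.

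**Figure D2:**
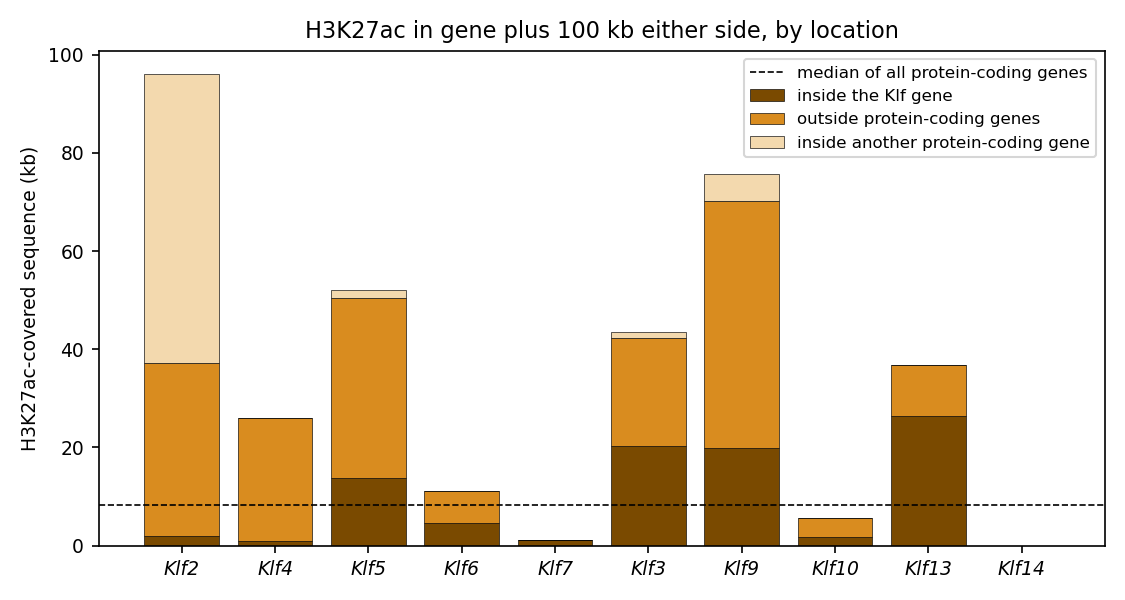
H3K27ac-covered length in kb in each gene plus 100 kb either side, split by whether the sequence lies in the Klf gene (dark), outside protein-coding genes (middle) or in another protein-coding gene (light), with the median of all protein-coding genes, 8.26 kb, as a dashed line. Of the 10 bars 7 exceed it, and most of the Klf2 bar lies in other genes.

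**Figure D3:**
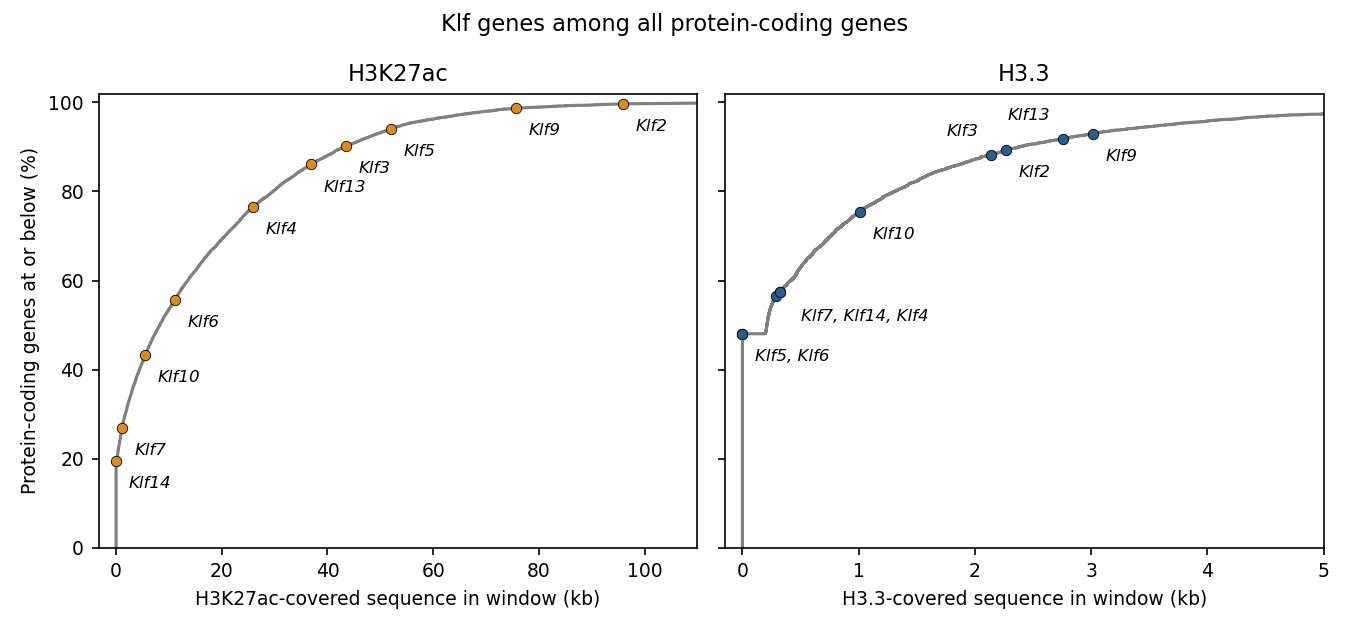
Share of protein-coding genes (%) with at most a given covered length in kb of H3K27ac (left) or H3.3 (right) in gene plus 100 kb (grey line), with the members as dots. For H3K27ac they run from Klf14 at 0 to Klf2 at 96.0 kb, and for H3.3 Klf5 and Klf6 sit at 0.

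The order by H3K27ac differed from that by H3.3. In falling order of H3K27ac the members were Klf2, Klf9, Klf5, Klf3, Klf13, Klf4, Klf6, Klf10, Klf7 and Klf14. Of these, 7 lay above the median of all protein-coding genes and 4 above the 90th percentile, which is 43224 bp. For H3.3, Klf9 (3015 bp), Klf13 (2756 bp), Klf2 (2271 bp within the window) and Klf3 (2139 bp) had the most, with 4 regions each. Klf10 had 1010 bp, Klf4, Klf14 and Klf7 had between 288 and 323 bp, and Klf5 and Klf6 had none. The median was 667 bp over the members and 210 bp over all protein-coding genes. Widths of the 2 lists do not compare amounts of the 2 targets, since nuclease fusion and stop buffer differed between them.

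At the gene ends, H3.3 was found mostly at the repressor genes and H3K27ac at members of every class. H3K27ac was found within 1 kb of either annotated end of 8 of the 10 members, all but Klf7 and Klf14, against 38.8% of protein-coding genes. H3.3 was found there at 6 of the 10, against 16.0%. For H3K27ac the count was 6 of 10 within 500 bp, against 33.7% of protein-coding genes, 9 of 10 within 2.5 kb, against 44.2%, and 8 of 10 with the wider 50% of its list, against 27.8%. Both were present at 4 members (Klf3, Klf9, Klf10 and Klf13, background 10.7%), though at opposite ends of Klf10, 6690 bp apart. H3K27ac alone was found at 4 (Klf2, Klf4, Klf5 and Klf6, background 28.2%) and H3.3 alone at 2 (Klf7 and Klf14, background 5.31%). Thus 1 of 5 activators had H3.3 at an end, a share near the background, while 4 of 4 SIN3-type and 1 of 1 CtBP-type repressors did. The widths of these H3.3 regions were modest, from 229 bp at Klf3 to 1203 bp at Klf13, against a median of 486 bp for the widest such region of all protein-coding genes with 1 or more. With only the wider 50% of the H3.3 list, Klf9, Klf10 and Klf13 were left with H3.3 at an end, 3 of the 10 members against 8.43% of protein-coding genes.

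The other 7 genes of the family were looked at in the same way. Of the remaining SIN3-type genes, Klf11 had an H3.3 region of 1284 bp at an end and no H3K27ac there. Klf16 had H3.3 over 1407 bp and H3K27ac over 922 bp. This H3.3 region lay outside the Klf16 gene. The Klf16 window held 12 H3.3 regions, covering more sequence than in 99.5% of protein-coding genes, and 9 other protein-coding genes. Of the remaining CtBP-type genes, Klf12 had H3.3 over 1356 bp and H3K27ac over 4998 bp, and the X-linked Klf8 had neither. The erythroid activator Klf1 had 1392 bp of H3K27ac and no H3.3. Klf15 had 239 bp of H3K27ac, and the germline-expressed Klf17 had neither mark. Over the 17 genes, H3.3 lay at an end of 6 of 6 SIN3-type genes, 2 of 3 CtBP-type genes, 1 of 6 activators and 0 of 2 genes not classed. The share over all protein-coding genes was 16.0%. With 500 bp in place of 1 kb the SIN3-type, CtBP-type and activator counts were 5 of 6, 2 of 3 and 1 of 6, where 14.2% of protein-coding genes had H3.3. With 2.5 kb they were 6 of 6, 2 of 3 and 2 of 6 against 18.4%. With the wider 50% of the H3.3 list they were 5 of 6, 1 of 3 and 0 of 6 against 8.43%. H3K27ac was present at 4 of 6 SIN3-type genes, 2 of 3 CtBP-type genes and 5 of 6 activators, against 38.8% of protein-coding genes. These are counts over few genes, and the difference between the classes was not tested.

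**Figure D4:**
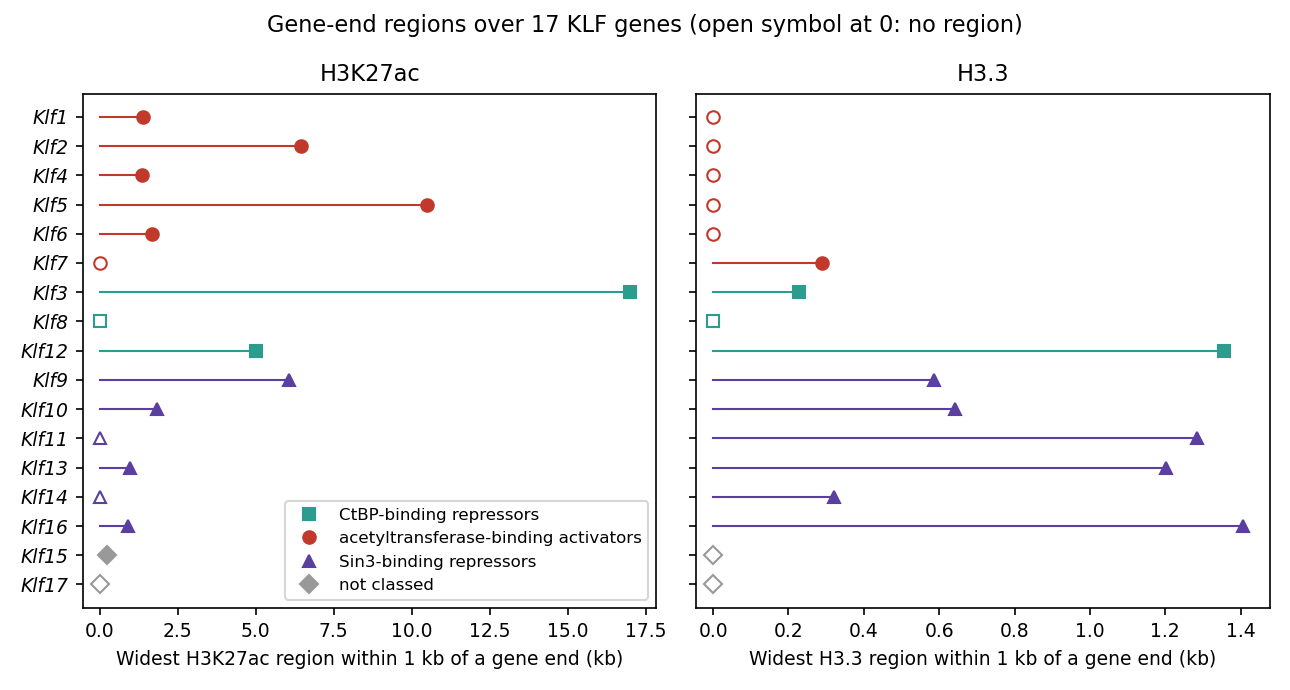
Width in kb of the widest H3K27ac (left) and H3.3 (right) region within 1 kb of an end of 17 KLF genes, by class of factor (colour and shape), with open symbols at 0 for genes without a region. The H3.3 panel shows a region at 6 of 6 SIN3-type genes and at 1 of 6 activators, and Klf3 has the widest H3K27ac region.

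The position of H3K27ac relative to the start site differed among the members. H3K27ac covered the start site at 2 of the 7 members with a RefSeq start, Klf2 and Klf3, against 18.3% of 21263 protein-coding start sites. At Klf4, Klf6 and Klf9 the start site lay between H3K27ac regions found within 2 kb on both sides, an arrangement at 5.27% of protein-coding start sites. Since the 2 kb limit was chosen after these distances were seen, the 3 of 7 are a description only. The gaps measured 1636 bp at Klf4, 1001 bp at Klf6 and 1037 bp at Klf9, against a median of 1104 bp. Klf13 fell just outside the limit, with H3K27ac 421 bp upstream and 2090 bp downstream, and Klf7 had H3K27ac on the downstream side alone. H3.3 around the start sites also differed among the members. H3.3 covered the start site at 1 of the 7 members, Klf13 (background 7.19%). At Klf9 an H3.3 region ran from -706 to -122 bp relative to the start site, and so reached farther into the gap than the H3K27ac region that it overlaps, which ended at -231 bp. No H3.3 region was in the gaps of Klf4 and Klf6. The start-site windows used for the motif search were touched by H3K27ac at Klf2, Klf3 and Klf9 (3 of 7, background 22.2%) and by H3.3 at Klf9 and Klf13 (2 of 7, background 11.8%). In the sequences printed above, all 150 bases of Klf2 and Klf3 lay in H3K27ac regions, all 150 bases of Klf13 and 29 of Klf9 lay in H3.3 regions, and those of Klf4, Klf6 and Klf7 lay in neither.

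**Figure D5:**
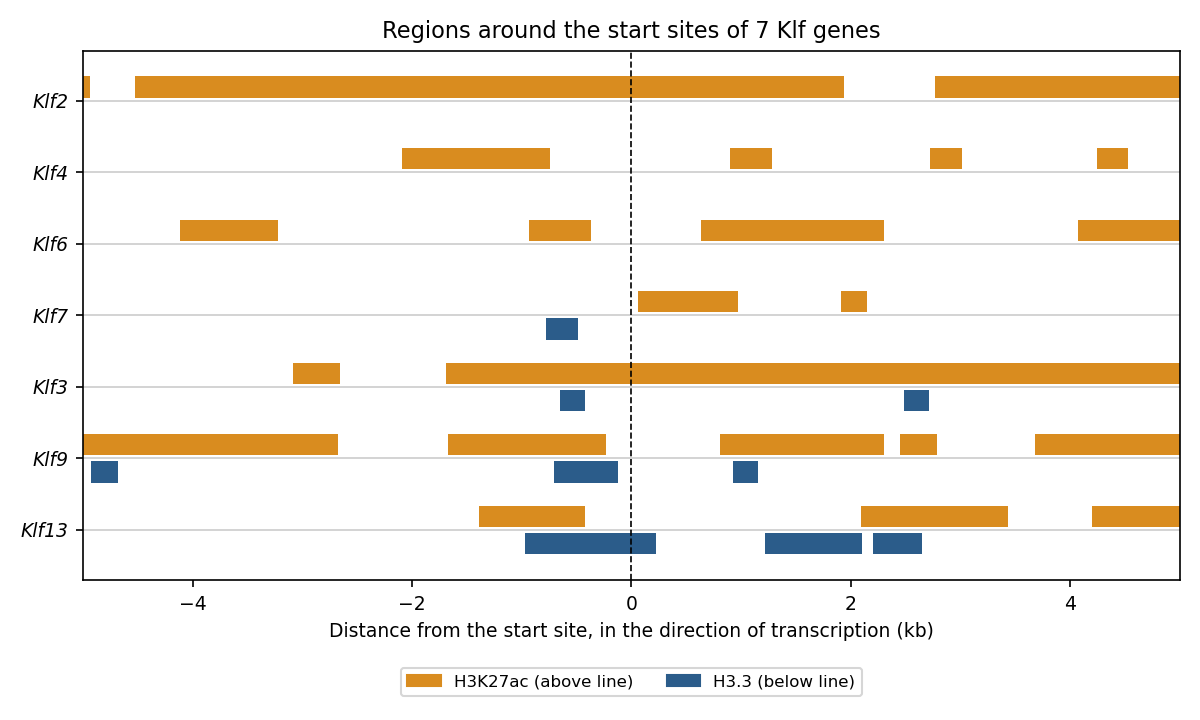
H3K27ac (orange, above each line) and H3.3 (blue, below) within 5 kb of the start sites of 7 Klf genes, by distance in kb in the direction of transcription, with the start site as a dashed line. H3K27ac crosses it at Klf2 and Klf3, and H3.3 crosses it at Klf13.

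Most H3.3 regions in these windows touched H3K27ac by 1 bp or more. Of the 21 H3.3 regions in the windows, 16 touched an H3K27ac region (76.2%, exact 95% interval 52.8 to 91.8%), against 47.5% of all 5430 H3.3 regions. The interval covers counting over regions only, and regions of the same window are not independent. The 47.5% was not matched for the amount of H3K27ac nearby. The member windows held a median of 31.4 kb of H3K27ac, against 8.26 kb over all protein-coding genes. Whether the share differs from that of windows with as much H3K27ac was not tested. Of the 21, 11 lay wholly inside H3K27ac, and 14 lay inside a member or within 10 kb of it. All 12 in the windows of Klf3, Klf9 and Klf13 touched H3K27ac. So did 3 of 4 in the Klf2 window and the lone region in the Klf4 window. Of those in the Klf2 window, regions of 363 and 685 bp lay 98.9 and 99.6 kb from the gene. The 5 that did not were those of Klf7 and Klf14, both regions of Klf10, and a region in the Klf2 window that lay 80 bp from H3K27ac and 78.7 kb from the gene. From the other side, 11 of the 142 H3K27ac regions touched H3.3. The share over all H3K27ac regions was not counted, so this count has no background beside it. The windows of Klf5 and Klf6 held no H3.3 region, so none of their 15 and 11 H3K27ac regions could touch H3.3. The widest H3.3 region in any window, 1955 bp, compares with a median of 452 bp for the whole list. None of the 21 exceeded 5 kb.

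The SP factors, which bind the same GC boxes, and the cofactors of the family were set beside these genes. Of 9 SP genes, 5 had H3.3 at an end, against 16.0% of protein-coding genes, and 4 had H3K27ac, a share near the 38.8% of protein-coding genes. Sp1, the ubiquitous GC-box activator, alone had both, against 10.7%. Sp5, a Wnt target, had 5219 bp of H3.3, Sp8 3957 bp and Sp9 3516 bp, with no H3K27ac at their ends, so these H3.3 regions were wider than any at a KLF gene end. H3K27ac was widest at Sp2 (4705 bp). Of 11 cofactor and regulator genes, 10 had H3K27ac at an end, against 38.8% of protein-coding genes. Of these, 4 also had H3.3, where 10.7% of protein-coding genes had both. Kat2b, an acetyltransferase gene, had the widest H3K27ac region (10578 bp), followed by the corepressor gene Ctbp2 (5295 bp) and the coactivator gene Ep300 (4116 bp). Crebbp, its close relative, had neither mark within 1 kb of its ends but 49.2 kb of H3K27ac in its window. The window of Ctbp2 held 130.2 kb, more than that of any of the 10 KLF members. That window was also longer than the Klf2 window, at 337012 bp against 202593 bp. Its covered share was lower, at 38.6% against 47.4% for Klf2.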

How the data were processed

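CUT&RUN was performed on nuclei of E14 cells. Per the submitters' processing notes, Bowtie2, SAMtools, deepTools, MACS2 and mm10 were used, without versions or roles. Per the labels' protocols, H3K27ac used a protein A and H3.3 a protein A/G nuclease fusion, with different stop buffers. The authors deposited 2 lists of region coordinates, without score or value per library. How libraries were pooled, and any threshold, is not given in the sources used here. Grouping of the 28 libraries followed their titles. H3K122ac was not used here.

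Starts were raised by 1. Regions off the assembled chromosomes (16 for H3.3, 13 for H3K27ac) were left out. Gene positions, start sites and promoter sequences came from RefSeq (GRCm38.p6), and Python 3.11.15 with pandas 2.3.3 and scipy 1.17.1 was used. A region counted if it touched a gene plus 100 kb, or 1 kb around either gene end, by 1 bp. Both gene ends were used, since strand was not known when this was planned. Start sites were added later and matched 7 of the members. No test was run, since the lists hold no value per library. Interval functions were tested on simulated data. Depth is unknown, so precision cannot be given beyond counting intervals.

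The members and gene lists were chosen with earlier results of these data known. Named are all members, their regions at ends or inside the gene, the widest and nearest regions of each window, the largest cluster, every other KLF gene, and up to 4 genes by width from the SP and cofactor lists. Further names complete sets of 5 or fewer. Sp1 and Crebbp were chosen after their values were seen, as were the 10 kb width and the 2 kb limit of gaps. Alternatives covered windows, flanks, overlap, the wider 50% of each list and the joining distance.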

Additional observations from a re-analysis of the deposited data

How the results depend on the processing

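Of 18 alternatives over the 10 genes, 13 stayed near the values reported, which for a count means within 1.5 times and for the share of H3.3 regions touching H3K27ac within its exact 95% interval. H3K27ac was at an end of 6 to 9 members with windows of 500 bp and 2.5 kb, and H3.3 at an end of 5 to 6. Klf4 and Klf10 were without H3K27ac at 500 bp, Klf14 was without H3.3 at 500 bp, and Klf7 had H3K27ac at 2.5 kb. The other 5 moved under settings that counted less or more sequence or fewer regions, though such settings left other counts near their values. The 142 H3K27ac regions became 93 with flanks of 50 kb, 230 with 200 kb and 84 with the wider 50% of the list. With the wider 50% of the H3.3 list, 3 in place of 6 members had H3.3 at an end, and 9 in place of 21 regions lay in the windows. The members lost, Klf3, Klf7 and Klf14, had H3.3 end regions of 229, 288 and 320 bp, so their H3.3 marking rests on narrow regions. The H3K27ac count at ends stayed at 8 with the wider 50% of its own list. The share of H3.3 regions touching H3K27ac ran from 61.9% (an overlap of 50% of the region) to 81.0% (a gap of up to 500 bp). The share over all H3.3 regions was not counted at either of these settings, so neither value has a background beside it. With joining at 5 kb, the largest clusters of Klf10 and Klf13 fell to 1.84 and 22.0 kb from 3.57 and 36.1 kb, and 7 others moved by less than 1.5 times. No paired analysis was possible because the lists hold no value per library and no result comes from a test. Depth cannot be judged, so a missing region shows only that none was listed.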
